A study of Mus musculus with 12 samples.

Results

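A set of 9 genes measured in this experiment encodes the proteins by which an activated macrophage or microglial cell handles arginine, nitric oxide, itaconate and histamine: Nos2, Gch1, Ass1, Slc7a2, Arg1, Arg2, Odc1, Acod1 and Hdc. They were found by matching the RefSeq accession that the array design gives each probe to the gene's symbol, which gave 11 probes for the 9 genes. A gene entered the test if each of the 3 arrays of some group read its probe well above background, as held for 8 of the 9, among 19319 genes and transcripts tested in all, of which 12659 have a symbol. Arg2, the mitochondrial arginase, was well above background on none of the 12 arrays and was not tested.

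The cells were BV-2, an immortalised mouse microglial line, so all arrays come from a single line. Total RNA was measured on 12 Agilent arrays with a single dye, 3 per group. The treated cells had 6 h in LPS (100 ng/ml) with curcumin (20 µM), LPS (100 ng/ml) alone or curcumin (20 µM) alone. The other group had no treatment, and the labels give no time for it. LPS, or lipopolysaccharide, comes from the outer membrane of Gram-negative bacteria and is sensed through Toll-like receptors, and curcumin is a polyphenol of turmeric. The labels do not say whether the 3 arrays of a group came from separate cultures, so the p-values measure only the spread between these arrays.

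Inducible nitric oxide synthase, the product of Nos2, makes nitric oxide and citrulline from arginine, and it needs the cofactor tetrahydrobiopterin, whose synthesis starts with the enzyme of Gch1. Slc7a2 carries arginine into the cell, and Ass1 catalyses a step that turns citrulline back into arginine. The arginases of Arg1 and Arg2 use the same arginine to make ornithine, from which the enzyme of Odc1 makes putrescine, the first polyamine. Acod1 (older symbol Irg1) makes itaconate from an intermediate of the tricarboxylic acid cycle, and Hdc makes histamine from histidine. In microglia and macrophages Nos2 and Acod1 are textbook genes of the response to LPS.

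The 250 bases before the RefSeq start of transcription are shown for the 4 members that rose with LPS and have a promoter sequence in the RefSeq table (GRCm38.p6), which held a sequence for 5 of the 9 members, Odc1 being the other. They lie at chr14:103046762-103047011 (plus strand) for Acod1, chr14:47189414-47189663 (minus strand) for Gch1, chr2:126618679-126618928 (minus strand) for Hdc and chr2:31470020-31470269 (plus strand) for Ass1. Capitals mark matches on either strand to 7 motifs: the NF-kB consensus, the interferon-stimulated response element (GAAA, any 2 bases, GAAA), the AP-1 site TGANTCA, the composite site of ATF4 and C/EBP TGATGNAA, the E-box CACGTG, the TATA box TATAAA and the GC box GGGCGG.
Acod1: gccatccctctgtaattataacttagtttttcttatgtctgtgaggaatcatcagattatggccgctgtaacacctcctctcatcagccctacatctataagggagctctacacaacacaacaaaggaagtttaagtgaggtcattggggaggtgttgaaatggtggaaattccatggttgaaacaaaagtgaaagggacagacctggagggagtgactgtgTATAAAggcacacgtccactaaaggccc
Gch1: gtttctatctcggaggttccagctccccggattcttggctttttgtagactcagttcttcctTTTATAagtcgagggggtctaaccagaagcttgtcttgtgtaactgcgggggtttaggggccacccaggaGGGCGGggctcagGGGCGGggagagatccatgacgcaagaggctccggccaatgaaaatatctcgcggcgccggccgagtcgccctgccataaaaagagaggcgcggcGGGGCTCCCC
Hdc: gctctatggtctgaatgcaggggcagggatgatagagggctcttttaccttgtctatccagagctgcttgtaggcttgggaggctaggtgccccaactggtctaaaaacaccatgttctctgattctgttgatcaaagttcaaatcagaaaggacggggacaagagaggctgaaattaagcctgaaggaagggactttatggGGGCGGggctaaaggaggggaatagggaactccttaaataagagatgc
Ass1: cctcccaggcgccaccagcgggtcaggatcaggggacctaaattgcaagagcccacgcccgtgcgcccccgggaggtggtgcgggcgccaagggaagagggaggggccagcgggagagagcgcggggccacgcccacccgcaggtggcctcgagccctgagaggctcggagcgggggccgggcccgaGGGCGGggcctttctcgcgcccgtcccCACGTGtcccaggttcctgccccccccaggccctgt
The Acod1 sequence holds a TATA box that starts at position −28 from the start of transcription, and no other match. The Gch1 sequence holds a match to the NF-kB consensus at position −10, right before the start, 2 GC boxes and, on the other strand, TATA box letters at position −188. The Hdc sequence holds a single GC box at position −48, and that of Ass1 an E-box at position −36 and a GC box at position −63. Of 32851 RefSeq promoters of this length, 7.25% hold the NF-kB letters, 12.4% a TATA box, 6.02% the E-box and 32.7% a GC box, and 2.98%, 6.75% and 3.45% hold the interferon, AP-1 and ATF4 letters, which none of the 4 sequences has. The Hdc start lies inside the annotated span of the gene, chr2:126593659-126624025. These matches are letters in a window and show no binding.

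Signals are given on the log2 scale relative to the 75th percentile of the array's own probes, so that 0 is the level of that percentile and each unit is a doubling. These levels are comparable between arrays for 1 probe but not between probes. Of 17 marker genes of microglia and macrophages 16 had a probe, and all 16 were well above background on every untreated array, while P2ry12 was not on any array with LPS. Array LPS+curcumin replicate 1 stood apart: its mean correlation over probes was 0.982 with the LPS arrays, 0.950 with the curcumin arrays and 0.944 with its own group, while LPS+curcumin replicates 2 and 3 correlated at 0.984 and 0.985 with the curcumin arrays and at 0.940 and 0.922 with the LPS arrays. Results on the combined treatment are therefore given with and without it. Array LPS+curcumin replicate 2 had 1594 spots marked as outliers by the scanner software, against at most 163 on any other array. Each replicate number was a slide that held 1 array of each group, with each group at the same slide position, so position and group cannot be told apart.

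**Figure D1:**
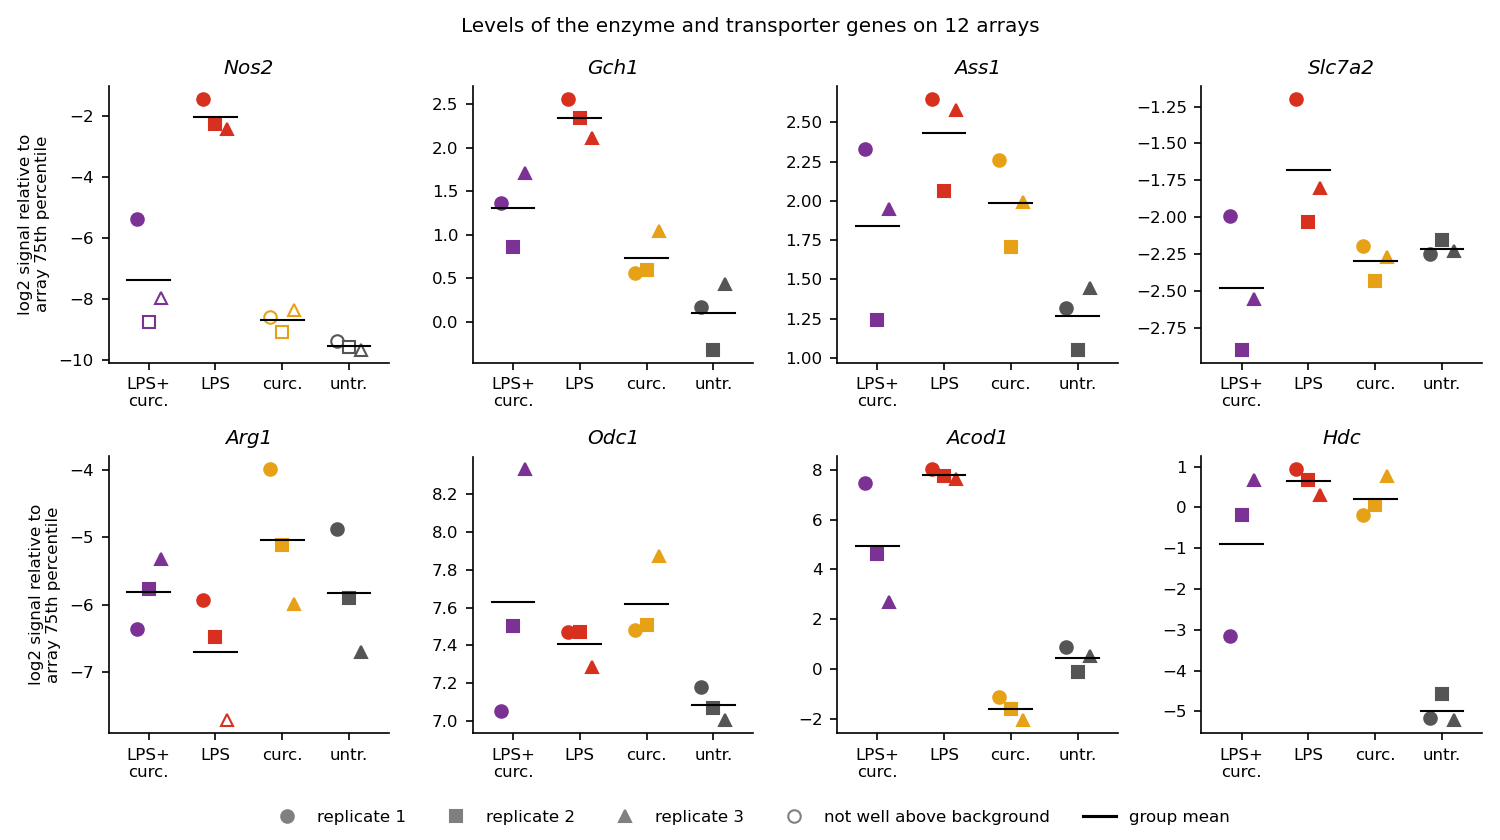
Levels of the 8 tested genes on each of the 12 arrays, as log2 signal relative to the array's 75th percentile, by group (curc., curcumin; untr., untreated), with the marker shape giving the replicate, open markers for arrays not well above background and a line for the group mean. Nos2 is well above background on the 3 LPS arrays and on LPS+curcumin replicate 1, and Hdc is higher in LPS and in curcumin than in untreated cells.

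LPS raised 5 of the 8 members tested and lowered none. Nos2, Acod1, Hdc, Gch1 and Ass1 rose, and Slc7a2, Odc1 and Arg1 did not pass the test (limma, Benjamini-Hochberg adjusted p below 0.05). Over all genes tested 5.73% were called in this comparison, 4.12% higher and 1.61% lower, and the median log2 difference of the 8 members was 1.70 against 0.01 for all genes. The members were chosen with earlier results of these data known. Such contrasts with all genes, here and below, therefore do not test whether the set stands out. The rises of Nos2, Acod1, Hdc and Gch1 were called on all 5 scalings of the arrays tried and with any of the 12 arrays left out.

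Nos2 was read by a probe with 10 spots per array. Its level was −1.42, −2.25 and −2.41 on the 3 LPS arrays, against −9.38, −9.57 and −9.67 on the 3 untreated arrays. All LPS arrays were well above background and no untreated array was, so the difference has only a lower bound: Nos2 was at least 41.3-fold higher in LPS cells (adjusted p = 7.15e-05), where the untreated level was set at each array's lowest signal among probes well above background. Nos2 entered the test only because its LPS arrays were well above background. Its adjusted p sets that group against unmeasured untreated levels and is no independent support for the rise. The gene lies at chr11:78920787-78960226 (GRCm38.p6).

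Gch1, whose enzyme controls the rate of tetrahydrobiopterin synthesis, had levels of 2.56, 2.34 and 2.11 on the LPS arrays, against 0.17, −0.32 and 0.44 on the untreated arrays. The groups did not overlap, and the difference was 2.24 ± 0.28 (SE, n = 3 per group; adjusted p = 0.000534), a 4.72-fold rise. A second, dimmer Gch1 probe gave 2.79 ± 0.33. Ass1 had levels of 2.65, 2.07 and 2.58 on the LPS arrays, against 1.32, 1.05 and 1.44 on the untreated arrays. The groups did not overlap here either, but the smaller rise of 1.16 ± 0.29 passed narrowly (adjusted p = 0.0396), and it was called on 2 of the 5 scalings and in 4 of the 12 fits that left out an array, with an adjusted p of up to 0.176 without untreated replicate 2.

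Acod1 had levels of 8.04, 7.77 and 7.62 on the LPS arrays, against 0.87, −0.12 and 0.52 on the untreated arrays. Its difference of 7.39 ± 0.89 (adjusted p = 0.000457) was a 167-fold rise, larger than 99.8% of all genes tested. The unscaled signal of this probe reached 182141 on an LPS array, and no spot of any array was marked as saturated. Hdc, the only enzyme known to make histamine in mammals, had levels of 0.94, 0.66 and 0.31 on the LPS arrays, against −5.16, −4.57 and −5.22 on the untreated arrays. That was a 49.1-fold rise (5.62 ± 0.75, adjusted p = 0.000936), again with no overlap.

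The remaining arginine genes gave values without a call. Slc7a2, the inducible cationic amino acid transporter, had levels of −1.20, −2.03 and −1.80 on the LPS arrays, against −2.25, −2.16 and −2.23 on the untreated arrays, a difference of 0.53 ± 0.27 (adjusted p = 0.391). Its lowest LPS array lay just above its highest untreated array. Arg1 was dim, with unscaled signals from 4.08 to 11.4 on the LPS arrays, of which 2 of 3 were well above background, against 9.06 to 31.3 on the untreated arrays. The groups overlapped, and the difference of −0.88 ± 0.62 did not pass (adjusted p = 0.646). Odc1, the ornithine decarboxylase gene, had unscaled signals of 122867 to 142065 on the LPS arrays, against 121329 to 132673 on the untreated arrays, and differed by 0.32 ± 0.28 (adjusted p = 0.779), as did its second probe by 0.21 ± 0.25.

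**Figure D2:**
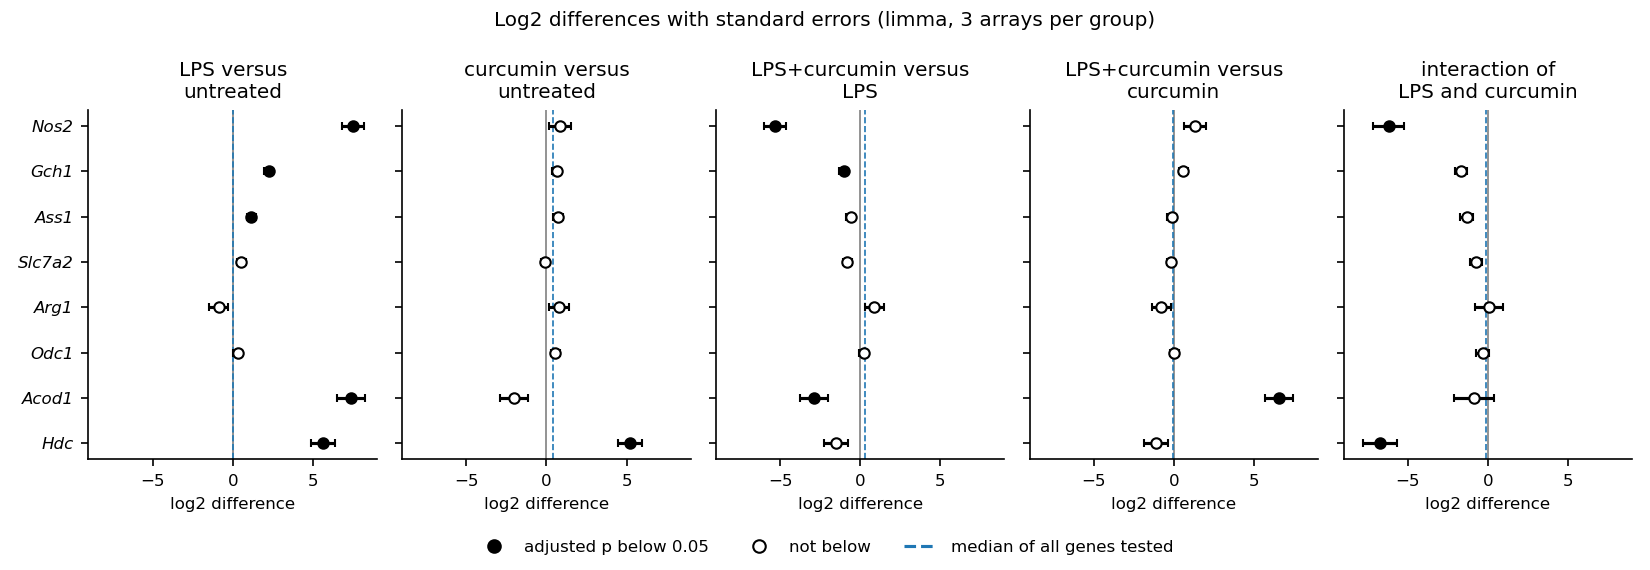
Log2 differences of the 8 tested genes in the 5 comparisons, with standard errors from limma (3 arrays per group), filled where the adjusted p is below 0.05; dashed lines give the median of all genes tested. LPS has 5 filled points, all higher, and LPS+curcumin against LPS has 3, all lower.

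Curcumin alone raised Hdc, and no other member was called by its main probe. Hdc had levels of −0.18, 0.06 and 0.76 on the curcumin arrays, against −5.16, −4.57 and −5.22 on the untreated arrays. The groups were far apart, and the rise of 5.20 ± 0.75 (adjusted p = 0.00148) was 36.7-fold, beside 49.1-fold with LPS alone, which was set against the same untreated arrays. It was called on all 5 scalings, where it ran from 4.11 to 5.20, and with any of the 12 arrays left out. Curcumin changed many genes, 29.2% of those tested, so 1 call among 8 is not above that background. The balance of these calls turned with the scaling: 21.9% of all genes were higher and 7.28% lower by the 75th percentile, against 8.18% and 25.1% on median scaling and 6.86% and 29.7% on spike-in scaling.

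Mast cells and basophils are the classical sources of histamine. Of 10 marker genes of these cells 8 had a probe, and Cpa3, Mcpt4, Mcpt8 and Tpsb2 were well above background on none of the 12 arrays. Prss34 was on all 12, Fcer1a on all but 2 untreated arrays, Cma1 on all but the 3 LPS arrays, and Ms4a2 on 2 LPS+curcumin arrays. The summed level of the 8 was 0.0593 to 0.134 times the array's 75th percentile on LPS+curcumin arrays, 0.0831 to 0.104 on curcumin arrays, 0.0505 to 0.0532 on LPS arrays and 0.0333 to 0.0513 on untreated arrays. The part of these levels in the Hdc values was not tested.

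Acod1 was the only member lower on every curcumin array than on every untreated array, and 5 of the 8 were higher on every one. The share of all genes whose groups did not overlap is not given here, so such counts have no background. Acod1 levels were −1.14, −1.63 and −2.07 on the curcumin arrays, against 0.87, −0.12 and 0.52 on the untreated arrays. The difference of −2.04 ± 0.89 did not pass (adjusted p = 0.0956), but it was called lower on 2 of the 5 scalings, where it reached −3.13, and when LPS+curcumin replicate 1 or 3, arrays that bear on it only by the pooled variance, was left out (adjusted p = 0.00417 and 0.0218).

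No other member was called with curcumin by its main probe. Gch1, Ass1 and Odc1 had differences of 0.64 ± 0.28, 0.72 ± 0.29 and 0.54 ± 0.28 with no overlap of the groups, but these turned to −0.45, −0.37 and −0.55 on spike-in scaling. The second, dimmer Gch1 probe was higher with curcumin, at 1.02 ± 0.33 (adjusted p = 0.0408 in limma over all probes). That probe was not fitted by itself on the other scalings. The 75th percentile itself was 473 to 617 units of signal on curcumin arrays, against 916 to 979 on untreated arrays, and relative to the spiked-in control probes it lay at 0.21 to 0.50 against 1.26 to 1.56 on the log2 scale. The median difference of all genes was accordingly 0.41 when scaled by the 75th percentile and 0.32 by probes detected everywhere, and −0.01, −0.42 and −0.67 by quantiles, the median and spike-ins. The cause of the lower 75th percentile was not tested, and these arrays measure neither cell number nor RNA per cell. Ass1 was called higher in a fit blocked by slide (adjusted p = 0.0159) and without LPS+curcumin replicate 1 or 2 (adjusted p = 0.0320 and 0.0495), and Odc1 without LPS+curcumin replicate 3 (adjusted p = 0.0286). Slc7a2 was at −0.08 ± 0.27, Arg1 at 0.79 ± 0.62, and Nos2 was well above background on no curcumin or untreated array, so that its call without LPS+curcumin replicate 1 (adjusted p = 0.0364) compares unmeasured levels.

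**Figure D3:**
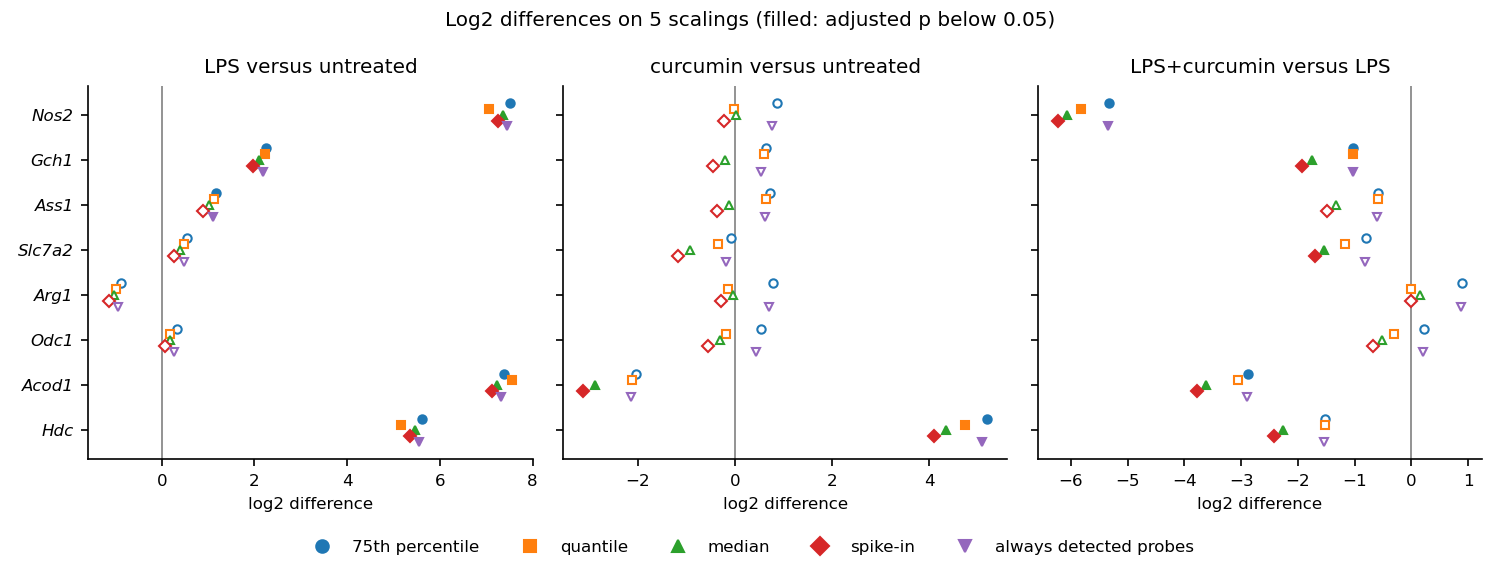
Log2 differences of the 8 tested genes on 5 scalings of the arrays, in 3 comparisons, filled where the adjusted p is below 0.05. In curcumin against untreated cells only Hdc is filled on every scaling. There Gch1, Ass1, Odc1 and Arg1 change sign on median and spike-in scaling. Odc1 and Arg1 also do so on quantile scaling, and Nos2 on quantile and spike-in scaling.

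When curcumin was added to LPS, 3 of the 8 members were called lower relative to LPS alone: Nos2, Gch1 and Acod1. None rose. Of all genes 18.7% were called in this comparison, 5.99% lower and 12.7% higher, but 16.2% lower and 5.18% higher on median scaling and 13.2% lower and 4.07% higher on spike-in scaling. The median of the members was −0.92 against 0.32 for all genes. Without LPS+curcumin replicate 1 the same 3 were called together with Slc7a2 and Ass1, when 54.8% of all genes were called, and these 5 were also the members called with the slide as a block. The share of all genes was 5.61% without LPS+curcumin replicate 2, 6.84%, 8.36% and 8.29% without LPS replicates 2, 1 and 3, and 11.1% without LPS+curcumin replicate 3.

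Nos2 had levels of −5.36, −8.75 and −7.96 on the LPS+curcumin arrays, against −1.42, −2.25 and −2.41 on the LPS arrays. Only the first of the LPS+curcumin arrays was well above background, and it too lay below every LPS array. The fitted difference was −5.33 ± 0.67 (adjusted p = 0.00128), called on all 5 scalings and with any array left out. Its size is not a measured fold, since replicates 2 and 3 were not well above background: against those arrays alone Nos2 was at least 17.8-fold lower than in LPS cells, and in replicate 1, where both arrays measured it, the difference within the slide was −3.94. Nos2 entered the test only through its LPS arrays. The adjusted p, and its holding across scalings and left-out arrays, are therefore no independent support for the fall.

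Gch1 had levels of 1.37, 0.85 and 1.71 on the LPS+curcumin arrays, against 2.56, 2.34 and 2.11 on the LPS arrays. The groups did not overlap, and the level fell by 1.03 ± 0.28 (adjusted p = 0.0287), a 2.04-fold difference called on all 5 scalings. The call was lost without LPS replicate 1, 2 or 3 (adjusted p = 0.0917, 0.0841 and 0.0542) or LPS+curcumin replicate 2 (adjusted p = 0.121). The second probe gave −0.85 ± 0.33 (adjusted p = 0.0893 over all probes), and on LPS+curcumin and LPS arrays the unscaled signal of the main probe was 993 to 1991 against 3696 to 4095.

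Ass1 and Slc7a2 lay lower within each slide. For Slc7a2 the levels were −1.99, −2.90 and −2.55 on the LPS+curcumin arrays, against −1.20, −2.03 and −1.80 on the LPS arrays, where the highest LPS+curcumin array lay just above the lowest LPS array. The difference of −0.80 ± 0.27 (adjusted p = 0.0564) became −1.05 ± 0.24 (adjusted p = 0.00465) without LPS+curcumin replicate 1, and its adjusted p was 0.025 when blocked by slide. Within slides 1, 2 and 3 it was −0.80, −0.87 and −0.75, the most even of the 8 members. For Ass1 the levels were 2.33, 1.24 and 1.95 on the LPS+curcumin arrays, against 2.65, 2.07 and 2.58 on the LPS arrays. That was −0.59 ± 0.29 (adjusted p = 0.157) with all arrays, −0.84 ± 0.27 (adjusted p = 0.0243) without replicate 1, and blocked by slide its adjusted p was 0.0392.

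Acod1 spread most among the LPS+curcumin arrays. Its levels were 7.49, 4.61 and 2.69 there, against 8.04, 7.77 and 7.62 on the LPS arrays, in unscaled signal 138462, 13840 and 1961 against 182141, 175115 and 168696. Every LPS+curcumin array lay below every LPS array, but replicate 1 was close to the LPS arrays and replicate 3 was far below them. The level fell by 2.88 ± 0.89 (adjusted p = 0.0448), called on 3 of the 5 scalings. Without replicate 1 the level fell by 4.16 ± 0.49 (adjusted p = 6.90e-05), and leaving out any of the other 11 arrays ended the call, with an adjusted p of up to 0.143.

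Hdc went the other way by array. Its levels were −3.16, −0.20 and 0.68 on the LPS+curcumin arrays, against 0.94, 0.66 and 0.31 on the LPS arrays. Replicate 1, which was closest to LPS for Acod1, had the lowest Hdc of the group, at −4.10 relative to the LPS array of its slide, while replicates 2 and 3 were at −0.86 and 0.37 relative to theirs. The positive value of replicate 3 depended on the scaling, as its unscaled Hdc signal was 488 against 1060 on LPS replicate 3. The 75th percentile was 304 units on LPS+curcumin replicate 3, the lowest of all arrays, against 857 on LPS replicate 3. The mean difference of −1.53 ± 0.75 did not pass (adjusted p = 0.159) and was −0.39 ± 0.35 without replicate 1. It was called lower on 2 of the 5 scalings. Arg1 and Odc1 differed by 0.89 ± 0.62 and 0.22 ± 0.28, with groups that overlapped, and were not called.

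**Figure D4:**
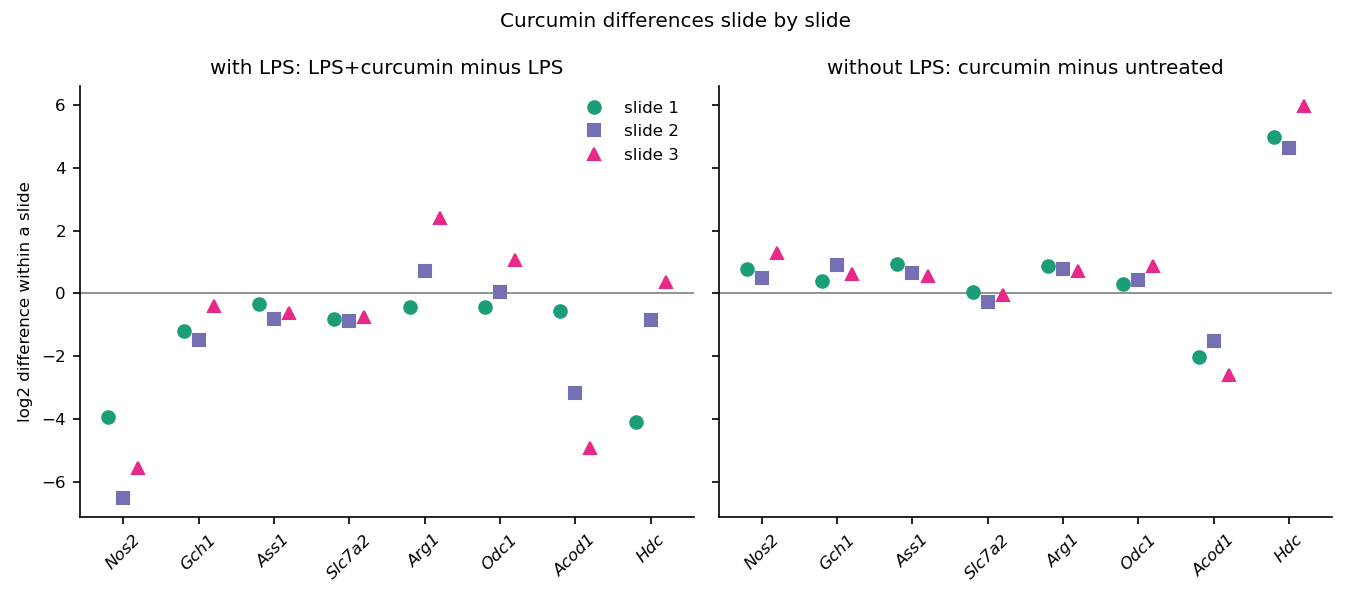
Log2 differences within each of the 3 slides for the 8 tested genes, LPS+curcumin minus LPS on the left and curcumin minus untreated on the right. On the left, slide 1, which holds LPS+curcumin replicate 1, is nearest to 0 for Acod1 and farthest from 0 for Hdc; on the right the 3 slides lie close together.

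Set against curcumin alone, LPS+curcumin cells differed in few genes, with 0.212% called (0.202% higher and 0.0104% lower), and Acod1 was among them. Acod1 levels of 7.49, 4.61 and 2.69 on the LPS+curcumin arrays stood against −1.14, −1.63 and −2.07 on the curcumin arrays. The rise of 6.54 ± 0.89 (adjusted p = 0.0135) was 93.1-fold and ranked 3 among all 19319 by size. Without LPS+curcumin replicate 1 it was 5.26 ± 0.49 (adjusted p = 0.000619), and it was called in 8 of the 12 fits that left out an array, with an adjusted p of 0.0549, 0.0752 and 0.0844 without curcumin replicates 1, 2 and 3 and 0.0555 without LPS+curcumin replicate 2. No other member was called. Gch1 differed by 0.58 ± 0.28 (adjusted p = 0.862) and Hdc by −1.11 ± 0.75 (adjusted p = 0.869). Hdc was at 0.03 ± 0.35 without replicate 1.

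The interaction asks whether curcumin's difference with LPS present was unlike its difference without LPS. It was called for 2 of the 8 members, Nos2 and Hdc, both lower, when 0.73% of all genes were called, 0.709% lower and 0.0207% higher. For Nos2 the interaction has no measured size: neither group without LPS had an array well above background, so that a fall without LPS could not have been seen, and only 1 of the 3 LPS+curcumin arrays did. The fitted value, which background levels set in part, was −6.19 ± 0.95 (adjusted p = 0.0115), and −7.18 ± 0.45 (adjusted p = 7.31e-06) without LPS+curcumin replicate 1. It was called with any array left out and on 3 of the 5 scalings. As Nos2 entered the test only through its LPS arrays, these calls are no independent support.

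For Hdc curcumin's difference was −1.53 with LPS and 5.20 without, and the interaction was −6.72 ± 1.06 (adjusted p = 0.0140). Without LPS+curcumin replicate 1 it was −5.59 ± 0.47 (adjusted p = 6.36e-05). Within slides 1, 2 and 3 it was −9.08, −5.49 and −5.61, it was called on all 5 scalings, and it was lost without LPS replicate 1 (adjusted p = 0.0541), curcumin replicate 3 (adjusted p = 0.0532) or untreated replicate 3 (adjusted p = 0.05003). LPS, curcumin and, on replicates 2 and 3, their combination gave Hdc levels within a range of −0.20 to 0.94, all above the untreated range of −5.22 to −4.57. Ass1, Gch1 and Acod1 had interactions of −1.31 ± 0.41, −1.66 ± 0.39 and −0.84 ± 1.26, not called (adjusted p = 0.314 for Ass1 and 0.113 for Gch1), though Gch1 was called without LPS+curcumin replicate 3 (−1.86 ± 0.37, adjusted p = 0.0491).

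The order of the 4 group means differed between genes. For Nos2 only LPS had every array well above background, and the other groups, below it, have no measured order. For Gch1 it was LPS, LPS+curcumin, curcumin and untreated from high to low, and of the neighbours in that order LPS and LPS+curcumin were called different, while LPS+curcumin and curcumin were not, nor curcumin and untreated, whose order turned on median and spike-in scaling. For Acod1 it was LPS, LPS+curcumin, untreated and curcumin, and only LPS and LPS+curcumin were called different among the neighbours tested. For Hdc it was LPS, curcumin, LPS+curcumin and untreated, with means of 0.64, 0.21, −0.89 and −4.98, where LPS+curcumin and curcumin were not called different and the other neighbours were not tested.

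Across the 12 arrays, which share 4 treatments and 3 slides, the levels of Nos2 and Gch1 had a Pearson r of 0.91 and those of Nos2 and Acod1 of 0.86, while Hdc and Acod1 had 0.25 and Hdc and Odc1 0.71. Among 12192 genes with a symbol the 3 most like Nos2 were Batf2, Camp and Irf7 (r = 0.996, 0.995 and 0.993), and those most like Acod1 were C9orf72, Slfn2 and Nfkbiz (r = 0.984, 0.982 and 0.982). For Hdc they were Rrad, Accsl and Slfn3 (r = 0.981, 0.973 and 0.972), and for Gch1 Lilrb4a, Tgm2 and Tmem171 (r = 0.980, 0.979 and 0.967). For Ass1 they were Prkx, Tubg2 and Mtpn, for Slc7a2 Inpp5b, Acp2 and Nudt13, for Arg1 Fkbp1b, Svop and Armc3, and for Odc1 Zfp593, Trip12 and Ccdc58, with r from 0.929 to 0.982. These are the highest of many correlations and carry no test.

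The other genes of the same pathways were followed in 5 lists with 73 tested genes, none of them a member. With LPS none of the 73 was called in limma, though 2 were higher and 3 lower at an unadjusted p below 0.05, and the list medians lay between −0.21 and 0.11 against 0.01 for all genes. The histamine receptor gene Hrh1 was closest to a call, at −1.12 ± 0.31 (adjusted p = 0.0628), and was called lower on 1 of the 5 scalings.

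With curcumin alone 23 of the 73 were called higher and 2 lower, where 21.9% of all genes were higher and 7.28% lower, a background near which several of the list counts that follow lie. The list medians of 0.53 to 0.87 stood against 0.41 for all genes, but all 5 medians turned negative on at least 1 other scaling. Calls that held on all 5 scalings were those of Ddah2, Slc7a3 and Hrh4 (higher) and of Amd1 and Hrh1 (lower); over all genes 6.40% were higher and 6.52% lower on all 5.

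Among 13 genes of nitric oxide and tetrahydrobiopterin 4 rose. Ddah2, which encodes an enzyme that breaks down methylated arginines that inhibit nitric oxide synthases, had levels of 0.45, 0.28 and 0.78 on curcumin arrays, against −2.29, −2.41 and −2.59 on untreated arrays, a rise of 2.93 ± 0.47 (adjusted p = 0.00221). The others were Prkg1 (1.95 ± 0.33), the cyclic GMP-dependent kinase gene, Cyb5r3 (0.85 ± 0.20) and Ddah1 (0.92 ± 0.27). On LPS+curcumin arrays Ddah2 was at −1.96, 0.20 and 0.09, against −1.31, −1.77 and −1.88 on LPS arrays, so that replicates 2 and 3 were high and replicate 1 was not.

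Among 12 genes of arginine, the urea cycle and transport 3 rose. Slc7a3, a cationic amino acid transporter related to Slc7a2, had levels of −1.07, −0.85 and −0.53 on curcumin arrays, against −5.95, −4.43 and −6.61 on untreated arrays, a 4.84 ± 0.76 rise (adjusted p = 0.00204), while Slc7a2 itself was at −0.08. Slc3a2, the heavy chain of several amino acid transporters, rose by 0.97 ± 0.17, and Aldh18a1, an enzyme of proline and ornithine synthesis, by 0.89 ± 0.24. With LPS present, too, Slc7a3 rose, by 3.64 ± 0.76 (adjusted p = 0.0109), with levels of −4.19, −1.08 and −1.08 on LPS+curcumin arrays, against −5.79, −6.01 and −5.48 on LPS arrays. That call held on all 5 scalings.

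Among 18 polyamine genes 7 rose and 1 fell with curcumin. Amd1, whose enzyme supplies the aminopropyl groups for spermidine and spermine, had levels of −2.69, −2.07 and −2.67 on curcumin arrays, against −1.25, −1.32 and −1.34 on untreated arrays, and fell by 1.17 ± 0.27 (adjusted p = 0.0108). The risers with the smallest adjusted p were Slc3a2, Azin2 (1.17 ± 0.28) and Oaz2 (0.96 ± 0.23), an antizyme that inhibits ornithine decarboxylase. Among 24 genes of itaconate and the tricarboxylic acid cycle 7 rose, each by less than 1, led by Clybl (0.83 ± 0.22), whose enzyme breaks down a product of itaconate, and followed by Idh3b and Idh2 (0.82 ± 0.24 and 0.74 ± 0.22), enzymes of the cycle.

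Among 7 histamine genes 3 rose and 1 fell with curcumin. Hrh4, a histamine receptor gene, was well above background on all 3 curcumin arrays, with levels of −4.72, −4.61 and −4.10, and on no untreated array (−9.34, −9.48 and −9.59), which makes it at least 7.55-fold higher (adjusted p = 0.00371). Hrh4 entered the test only because its curcumin arrays were well above background, so this adjusted p is no independent support for the rise. Hrh1 had levels of −1.12, −0.75 and −1.44 on curcumin arrays, against −0.18, −0.11 and −0.11 on untreated arrays, and fell by 0.97 ± 0.31 (adjusted p = 0.0389). Hal, which breaks down histidine, and Slc18a2, which loads amines into vesicles, rose by 2.16 ± 0.53 and 0.87 ± 0.26, and Hal was well above background on 2 of the 3 untreated arrays.

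**Figure D5:**
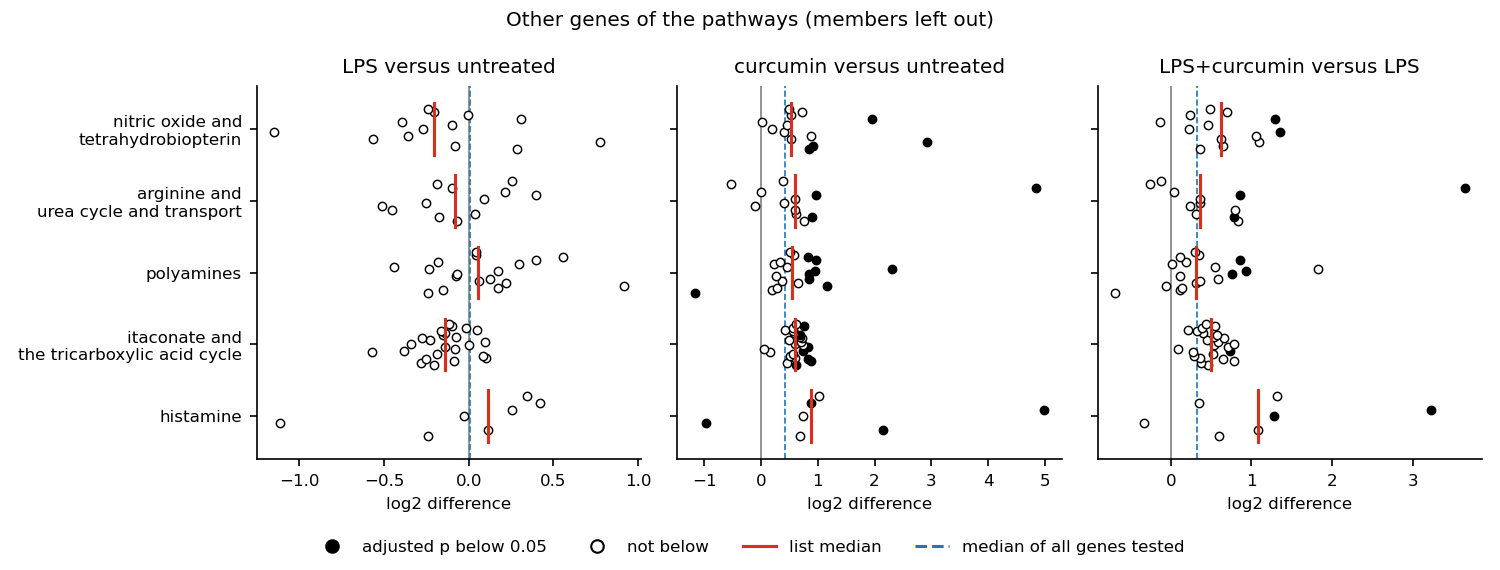
Log2 differences of the other genes of 5 pathway lists in 3 comparisons, each point a gene, filled where the adjusted p is below 0.05, with the list median in red and the median of all genes tested as a dashed line. No point is filled with LPS; with curcumin most points lie above 0 on this scaling, with Slc7a3, Hrh4 and Ddah2 farthest out.

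With LPS+curcumin against LPS 10 of the 73 were higher and none lower in limma, where 1 was lower at an unadjusted p below 0.05. Over all genes 12.7% were higher and 5.99% lower, so the number higher is near the background. The list medians were 0.31 to 1.08 against 0.32 for all genes. Scaled by spike-ins, the medians of the first 4 lists were −0.25, −0.53, −0.59 and −0.37 and that of histamine 0.18, against −0.57 for all genes. Of the 10 calls only that of Slc7a3 held on all 5 scalings. Not called on the main scaling, Amd1 was called lower on 3 of the 5 (−1.59 to −0.69 over all 5) and Hrh1 on 1. The 10 were Nos1 and Prkg1 for nitric oxide (1.36 ± 0.35 and 1.29 ± 0.33), Slc7a3, Slc3a2 (0.86 ± 0.17) and Aldh18a1 (0.79 ± 0.24) for arginine, Oaz2 (0.94 ± 0.23) and Oaz1 (0.76 ± 0.23) beside Slc3a2 for polyamines, Idh2 (0.73 ± 0.22) for the tricarboxylic acid cycle, and Hrh4 and Hrh3 for histamine. Nos1, the neuronal synthase gene, was well above background on 2 of the 3 LPS arrays, and Hrh4 was on LPS+curcumin replicates 2 and 3 only (at least 2.30-fold higher over the group, adjusted p = 0.0345). Without LPS+curcumin replicate 1 the 5 lists had 8, 6, 7, 18 and 5 genes higher, in the order of the lists above, and none lower, when 39.9% of all genes were higher. Against curcumin alone LPS+curcumin had no call among the 73 (3 lower and 0 higher at an unadjusted p below 0.05), and nor did the interaction (2 lower and 0 higher).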

How the data were processed

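RNA of BV-2 cells was hybridised to 12 arrays, each with 1 dye. The authors' deposited scanner files hold spot intensity on a linear scale, background-subtracted by Agilent Feature Extraction. The submitters' processing notes give version 9.1 of it, and 10.5.1.1 stands in the file headers. The deposited value table holds the same intensity, within 0.397% of the scanner values.

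Outlier spots were left out, the spots of a probe were averaged, and log2 of the signal minus the array's 75th percentile was taken. A gene's brightest probe stood for it. R 4.3.3 with limma 3.58.1 fitted group means over all 12 arrays (lmFit, then eBayes), with Benjamini-Hochberg adjustment over 19319 genes and transcripts, called at adjusted p below 0.05. A probe counted as well above background where the scanner software marked it so on no fewer of its spots than not. The bound on a fold takes the higher of the array's lowest such signal and the probe's own. The code was tested on simulated data. The number of arrays, 3 per group, limits the precision.

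The members and lists were chosen with earlier results of these data known. All 9 members are named, up to 4 called genes with the smallest adjusted p for each list and comparison, and the 3 genes most like each tested member; 1 gene that this rule gives is not reported here. Alternatives were 4 other scalings, no or another filter, the mean of a gene's probes, outliers kept, the slide as a block, limma's trend and robust options, the value table, normexp background correction and arrays left out. Replicate numbers matched slides in the file headers, and 16 of 18 pairs of arrays with the same number had deviations from their group means that correlated above 0.1 (range −0.02 to 0.711).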

Additional observations from a re-analysis of the deposited data

Results flagged for a closer look

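Curcumin's difference was unlike with and without LPS, by the interaction term of the fit, for Hdc (−6.72 ± 1.06, adjusted p = 0.0140 in limma). The interaction of Nos2 was called too (fitted value −6.19 ± 0.95, adjusted p = 0.0115), but it has no measured size and does not show that curcumin's effect differed, since Nos2 was well above background on no array of curcumin or untreated cells. Nos2 was lower in LPS+curcumin than in LPS cells on all 3 slides. Hdc was higher in curcumin than in untreated cells on all 3 slides. Scaled by the 75th percentile, Hdc in LPS+curcumin against LPS cells was lower on slides 1 and 2 and higher on slide 3. On slide 3 its unscaled signal was lower, at 488 in LPS+curcumin against 1060 in LPS cells. The part of LPS+curcumin replicate 1, where Hdc was at −4.10 relative to the LPS array of its slide, is shown by the value without it (−5.59 ± 0.47).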

How the results depend on the processing

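With LPS the 5 calls kept their number within 1.5 times under every alternative except without all arrays of replicate 2 (1). There 1.01% of all genes were called, against 5.73% in the main fit. The count of members called with curcumin alone, 1, was 2 on median and spike-in scaling, with the mean of a gene's probes and with a slide block, and 0 to 4 over arrays left out. Of all genes 33.3%, 36.6%, 29.3% and 42.1% were called in that order of settings, against 29.2% in the main fit. Over arrays left out the share ran from 0.104% to 49.6%. That of LPS+curcumin against LPS, 3, was 5 on median and spike-in scaling and with the block, 1 with no filter on dim probes, and 0 to 5 over arrays left out. Of all genes 21.3%, 17.2%, 28.9% and 8.28% were called in that order of settings, against 18.7% in the main fit. Over arrays left out the share ran from 0.0466% to 54.8%. That of LPS+curcumin against curcumin, 1, was 0 with normexp background correction and 0 to 1 over arrays left out. Of all genes 0.16% were called with normexp, against 0.212% in the main fit, and 0.0207% to 1.06% over arrays left out. That of the interaction, 2, was 1 on quantile and spike-in scaling and with normexp, and 0 to 3 over arrays left out, with Gch1 as the third without LPS+curcumin replicate 3. It was also 1 with a filter at 6 of 12 arrays, which left Nos2, well above background on fewer arrays, untested. Of all genes 0.373%, 0.342%, 0.528% and 0.468% were called in that order of settings, against 0.73% in the main fit. Over arrays left out the share ran from 0% to 2.26%. These ranges cover single arrays and whole replicate numbers, and in all comparisons but that of LPS+curcumin against curcumin the lowest count of members came from leaving out a whole number. Normexp, on median spot signals, and leaving out whole replicate numbers were chosen after seeing the data. Pairing arrays by slide, the replicate block, added Ass1 (higher with curcumin; lower, with Slc7a2, in LPS+curcumin against LPS) and changed no other call.

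Signs turned for members that were not called on the main scaling. With curcumin alone, values on quantile, median and spike-in scaling and with normexp were −0.138, −0.048, −0.297 and −0.026 for Arg1 and −0.192, −0.301, −0.550 and −0.165 for Odc1. Nos2 was at −0.012 on quantile and −0.231 on spike-in scaling and at −0.0083 with normexp, and on median and spike-in scaling Ass1 was at −0.121 and −0.370 and Gch1 at −0.199 and −0.448. In LPS+curcumin against LPS Arg1 was at −0.0065 on quantile and −0.0095 on spike-in scaling, and Odc1 at −0.299, −0.511 and −0.676 on quantile, median and spike-in scaling and −0.324 with normexp. In LPS+curcumin against curcumin Odc1 was at −0.034 and −0.065 on median and spike-in scaling and −0.114 with the mean of its probes. Over arrays or whole replicate numbers left out, Slc7a2 ran from −0.156 to 0.0096 with curcumin alone, and Odc1 from −0.191 to 0.541 in LPS+curcumin against LPS. In LPS+curcumin against curcumin the ranges were −1.51 to 0.0074 for Arg1, −0.391 to 0.152 for Ass1, −0.430 to 0.023 for Slc7a2, −1.89 to 0.027 for Hdc and −0.341 to 0.298 for Odc1. Interactions ran from −0.688 to 0.804 for Arg1 and from −2.12 to 0.276 for Acod1. Except where a left-out array or a shared shift of all genes shows it, the cause was not tested. Signal over background limits Nos2, Arg1 and Arg2.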
